A study of Homo sapiens with 27 samples.

Results

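KDR, TEK, CD34, PECAM1, CDH5, ETV2, TAL1 and LMO2 are genes of endothelial cells and of the progenitors they share with blood, and they were followed here through a cardiac differentiation of human embryonic stem cells. All probes of these 8 genes were taken from the non-normalized array table, which gave 13 probes of 47323 (8 of 20046 genes with a named probe). CD34 had 5 probes, TEK had 2 and each of the other genes had 1. The cells were the established line HuES6, measured as total RNA on 27 Illumina bead arrays. Differentiation was started on Matrigel in a defined, serum-free medium, with FGF2 (10 ng/ml), BMP4 (1 ng/ml) and a compound that the labels call CHIR00921 (1 µM) present for the first 24 h. Insulin was given on day 0 and left out from day 1.

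The groups differed by day and by IWP-2, an inhibitor of the enzyme that cells need to secrete WNT proteins. Cells of the IWP-2 arm received the inhibitor on day 2 and again on day 3 of time course 1, and a day earlier (days 1 and 2) when time course 2 was run. The labels give the unit of IWP-2 (µM) but no dose. IWP-2 cultures were sampled on days 3, 4, 5, 6 and 8 in both time courses and on day 2 in time course 2 alone. The arm without inhibitor was sampled on days 1, 2, 3, 4, 5, 6 and 8, and day 0 was the undifferentiated line, with both time courses at each of these days. Each day of an arm therefore had 2 arrays, 1 from each time course, except IWP-2 day 2 with 1. The title of the study asks whether an intermediate WNT inhibition is required for cardiac differentiation. All arrays come from 1 cell line, and the labels do not say which of them were separate cultures, so p-values here reflect the spread among arrays, part of which may be technical.

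VEGF receptor signalling and a small set of transcription regulators turn part of the lateral mesoderm into haemangioblast-like progenitors, and these into endothelial or blood cells. KDR is the main VEGF receptor and already marks cardiovascular mesoderm, which also forms heart muscle. ETV2 is an ETS-family factor that acts early and for a short time, and TAL1 and LMO2 belong to one DNA-bound complex used in both blood and endothelial cells. CD34, PECAM1 (CD31) and CDH5 (VE-cadherin) are surface proteins of the vessel lining and CD34 also marks blood progenitors, while TEK (TIE2) is the receptor of the angiopoietins.

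The DNA just before the start of these genes is shown because regulators within the group (ETV2, TAL1 with LMO2) bind short words of it. RefSeq promoter windows on GRCh38.p14 were found for 5 of the 8 genes (KDR, TEK, CD34, ETV2 and TAL1), and each window held the 250 bases before the outermost start of the gene. PECAM1, CDH5 and LMO2 had no entry. Windows were searched on both strands for 2 words that ETS factors bind (CAGGAA and CCGGAA), 1 word of GATA factors (GATAAG) and the general helix-loop-helix word CANNTG. Both regulators with a window are printed, with 1 receptor (TEK) and 1 surface gene (CD34). Capitals mark the ETS and GATA words, which appear as their reverse complement where the match lay on the opposite strand, and sequences run 5′ to 3′ on the strand of the gene.
ETV2 chr19:35641495-35641744 (plus strand): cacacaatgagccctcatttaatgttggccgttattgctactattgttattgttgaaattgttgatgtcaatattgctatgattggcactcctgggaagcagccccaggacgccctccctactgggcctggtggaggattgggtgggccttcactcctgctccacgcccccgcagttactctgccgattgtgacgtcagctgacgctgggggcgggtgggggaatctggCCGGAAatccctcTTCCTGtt
TAL1 chr1:47232336-47232585 (minus strand): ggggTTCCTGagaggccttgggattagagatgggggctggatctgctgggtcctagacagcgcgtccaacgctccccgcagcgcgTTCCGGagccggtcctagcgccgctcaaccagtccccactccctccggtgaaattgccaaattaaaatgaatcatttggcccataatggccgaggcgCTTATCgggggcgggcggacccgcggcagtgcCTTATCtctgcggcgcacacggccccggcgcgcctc
TEK chr9:27108975-27109224 (plus strand): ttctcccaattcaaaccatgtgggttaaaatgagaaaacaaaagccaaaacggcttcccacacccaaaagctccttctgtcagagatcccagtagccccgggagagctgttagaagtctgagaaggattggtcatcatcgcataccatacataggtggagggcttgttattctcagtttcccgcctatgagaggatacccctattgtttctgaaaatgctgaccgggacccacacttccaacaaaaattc
CD34 chr1:207911126-207911375 (minus strand): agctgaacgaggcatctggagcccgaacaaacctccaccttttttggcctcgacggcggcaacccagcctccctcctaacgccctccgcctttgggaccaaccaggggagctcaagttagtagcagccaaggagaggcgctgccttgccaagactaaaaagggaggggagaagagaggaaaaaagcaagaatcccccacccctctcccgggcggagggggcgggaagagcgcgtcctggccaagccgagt

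ETV2 held 1 CAGGAA and 1 CCGGAA, whose near ends lay 3 and 16 bases before its start. TAL1 held 1 of each ETS word and 2 copies of GATAAG, and the GATA words lay 63 to 68 and 31 to 36 bases before the start. KDR, TEK and CD34 held no match of these 3 words, and no marked words overlapped. CANNTG, left in lower case, had 1 match in each of the 5 windows. Among 35114 RefSeq windows of the same length, 24.1% held CAGGAA, 14.5% CCGGAA, 35.7% either ETS word, 5.65% GATAAG and 61.8% CANNTG. A match is a run of letters and says nothing on whether a factor was bound.

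Signals were normalized to log2 intensity, and a probe counted as above background where its detection p was under 0.01. Arrays had 16424 to 19784 probes above background. The lowest signal of any such probe on an array lay between 4.715 and 5.127 on the log2 scale, which is the floor for the values below. The mean raw signal was 293.1 to 349.5 on 26 arrays and 225.2 on the array of IWP-2 day 8, time course 2. Markers of pluripotent cells (POU5F1, NANOG, SOX2, LIN28A and DPPA4) were lower on days 6 and 8 without inhibitor than on day 0 in 5 of 5 genes tested, with a median difference of -5.99. In that comparison 46.6% of all genes tested passed in either direction (limma, adjusted p under 0.05). Since the arrays measured whole cultures, fewer cells of a type and less RNA per cell cannot be told apart.

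Detection itself separated the 8 genes. KDR was above background on 27 of 27 arrays, TEK on 27 (probe 1) and 26 (probe 2), and LMO2 on 22. ETV2 was above background on 16 arrays, CDH5 on 13 and PECAM1 on 10. CD34 was read on 17 arrays by probe 1, 13 by probe 2 and 4 by probe 3, and on none by probes 4 and 5, which were left out of all tests. TAL1 was above background on 3 arrays, all of day 5. The undifferentiated cells of day 0 thus gave a signal for KDR and TEK on both arrays and for LMO2 on 1, and none for CD34, PECAM1, CDH5, TAL1 or ETV2. Genes without a day 0 signal could be tested only through later arrays, and had little room to fall from day 0.

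KDR was low until day 1 and higher from day 2 without inhibitor. In the IWP-2 arm, time course 1 read 5.71, 7.17, 5.93, 5.99 and 6.73 on days 3, 4, 5, 6 and 8, and time course 2 read 5.42, 5.76, 6.26, 6.72, 7.05 and 7.30 on days 2, 3, 4, 5, 6 and 8. Without inhibitor, days 0, 1, 2, 3, 4, 5, 6 and 8 read 5.30, 5.25, 6.34, 6.55, 7.53, 7.19, 7.13 and 6.51 in time course 1 and 5.62, 5.16, 6.30, 6.40, 6.72, 7.21, 7.03 and 7.23 in time course 2. Every array without inhibitor from day 2 on lay above both day 0 arrays (5.30 and 5.62). The IWP-2 array of day 2 (5.42) lay between the day 0 arrays, and the IWP-2 arrays of day 3 (5.71 and 5.76) lay a little above both. With IWP-2, time course 1 lay above time course 2 on day 4 and below it on days 5, 6 and 8.

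ETV2, the early ETS factor, peaked on day 4 in cultures without inhibitor. Under IWP-2 it read 4.96, 5.10, 5.41, 4.95 and 4.74 on days 3, 4, 5, 6 and 8 of time course 1, and 4.45, 5.11, 5.42, 5.07, 5.00 and 4.41 on days 2, 3, 4, 5, 6 and 8 of time course 2. Without inhibitor, the values from day 0 to day 8 were 4.48, 4.59, 4.69, 4.33, 6.26, 5.01, 5.11 and 5.00 in time course 1 and 4.33, 4.37, 4.94, 4.76, 5.69, 5.07, 5.06 and 4.98 in time course 2. The 2 arrays of day 4 without inhibitor were the highest of the 27, and no day 0 or day 1 array was above background. With IWP-2 the highest array was that of day 5 in time course 1 and that of day 4 in time course 2. On day 4, ETV2 was lower with IWP-2 by 1.2 and 0.3 on the log2 scale in time courses 1 and 2, each difference resting on 1 array against 1.

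LMO2, the bridging protein of the TAL1 complex, had an early and a late phase. In the IWP-2 arm it read 4.96, 6.15, 8.08, 8.80 and 8.74 on days 3, 4, 5, 6 and 8 of time course 1, and 4.50, 5.47, 6.73, 7.89, 7.04 and 5.67 on days 2, 3, 4, 5, 6 and 8 of time course 2. Without inhibitor, days 0 to 8 gave 5.15, 5.65, 6.61, 4.53, 7.60, 9.05, 8.92 and 8.94 in time course 1 and 4.49, 5.49, 5.47, 4.46, 6.88, 8.71, 8.34 and 7.49 in time course 2. Both arms of time course 1 held their level from day 6 to day 8. LMO2 was above background on days 1 and 2 without inhibitor, fell below it on day 3 in both time courses and was highest on day 5. TAL1 itself, the helix-loop-helix partner, had 5.31 on day 5 with IWP-2 in time course 1, and 5.23 and 4.83 on day 5 without inhibitor in time courses 1 and 2, and these were its 3 arrays above background. Its remaining 24 values lay at 4.16 to 4.81.

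TEK, the angiopoietin receptor, was present in undifferentiated cells and stepped up on day 4 without inhibitor. Under IWP-2, probe 1 read 5.36, 5.88, 7.90, 8.96 and 8.40 on days 3, 4, 5, 6 and 8 of time course 1 and 6.33, 5.79, 6.48, 7.97, 8.02 and 6.40 on days 2, 3, 4, 5, 6 and 8 of time course 2. Without inhibitor, days 0 to 8 gave 6.42, 6.20, 6.26, 5.42, 8.40, 9.09, 9.24 and 9.23 in time course 1 and 6.53, 6.74, 6.83, 6.44, 9.44, 10.29, 10.00 and 9.57 in time course 2. The day 4 arrays with IWP-2 (5.88 and 6.48) each lay below the day 0 array of their time course (6.42 and 6.53), and the 2 day 4 arrays without inhibitor lay above every array of days 0 to 3. On each shared day the IWP-2 array was below its partner of the same time course.

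CD34 moved late and over a wide range. In the IWP-2 arm, probe 1 read 4.71, 5.17, 8.95, 9.41 and 9.38 on days 3, 4, 5, 6 and 8 of time course 1 and 5.01, 5.47, 5.39, 8.73, 7.15 and 5.83 on days 2, 3, 4, 5, 6 and 8 of time course 2. Without inhibitor, days 0 to 8 gave 4.70, 4.54, 4.34, 4.48, 4.93, 9.81, 10.05 and 9.91 in time course 1 and 4.54, 4.85, 4.83, 4.44, 7.08, 10.39, 10.45 and 8.99 in time course 2. All values up to day 4 without inhibitor were below background apart from 7.08 on day 4 of time course 2, and all from day 5 on were above 8.9. With IWP-2, time course 1 read 9.41 and 9.38 on days 6 and 8, while time course 2 declined after day 5. Time course 2 without inhibitor also fell, from 10.45 on day 6 to 8.99 on day 8.

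CDH5, the cadherin of endothelial junctions, switched between day 4 and day 5. Cultures with IWP-2 read 4.22, 4.54, 7.33, 8.40 and 8.62 on days 3, 4, 5, 6 and 8 of time course 1 and 4.31, 4.31, 4.48, 7.89, 7.62 and 5.95 on days 2, 3, 4, 5, 6 and 8 of time course 2. Without inhibitor, days 0 to 8 gave 4.32, 4.26, 4.17, 4.26, 4.62, 8.45, 8.76 and 8.58 in time course 1 and 4.23, 4.18, 4.23, 4.29, 5.47, 8.79, 8.85 and 7.54 in time course 2. CDH5 was below background on all arrays before day 5 except day 4 of time course 2 without inhibitor, the array on which CD34 was also up. PECAM1, an adhesion protein of endothelial cells, platelets and leukocytes, was below background up to day 4 in both arms. On days 5, 6 and 8 it read 4.75, 6.31 and 6.83 with IWP-2 against 5.32, 6.30 and 6.75 without inhibitor in time course 1. In time course 2 the same days gave 5.68, 5.82 and 4.57 with IWP-2, against 6.60, 6.74 and 6.32 without inhibitor. The arms of time course 1 met on days 6 and 8 for PECAM1, and those of time course 2 did not meet on any of the 3 days.

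**Figure D1:**
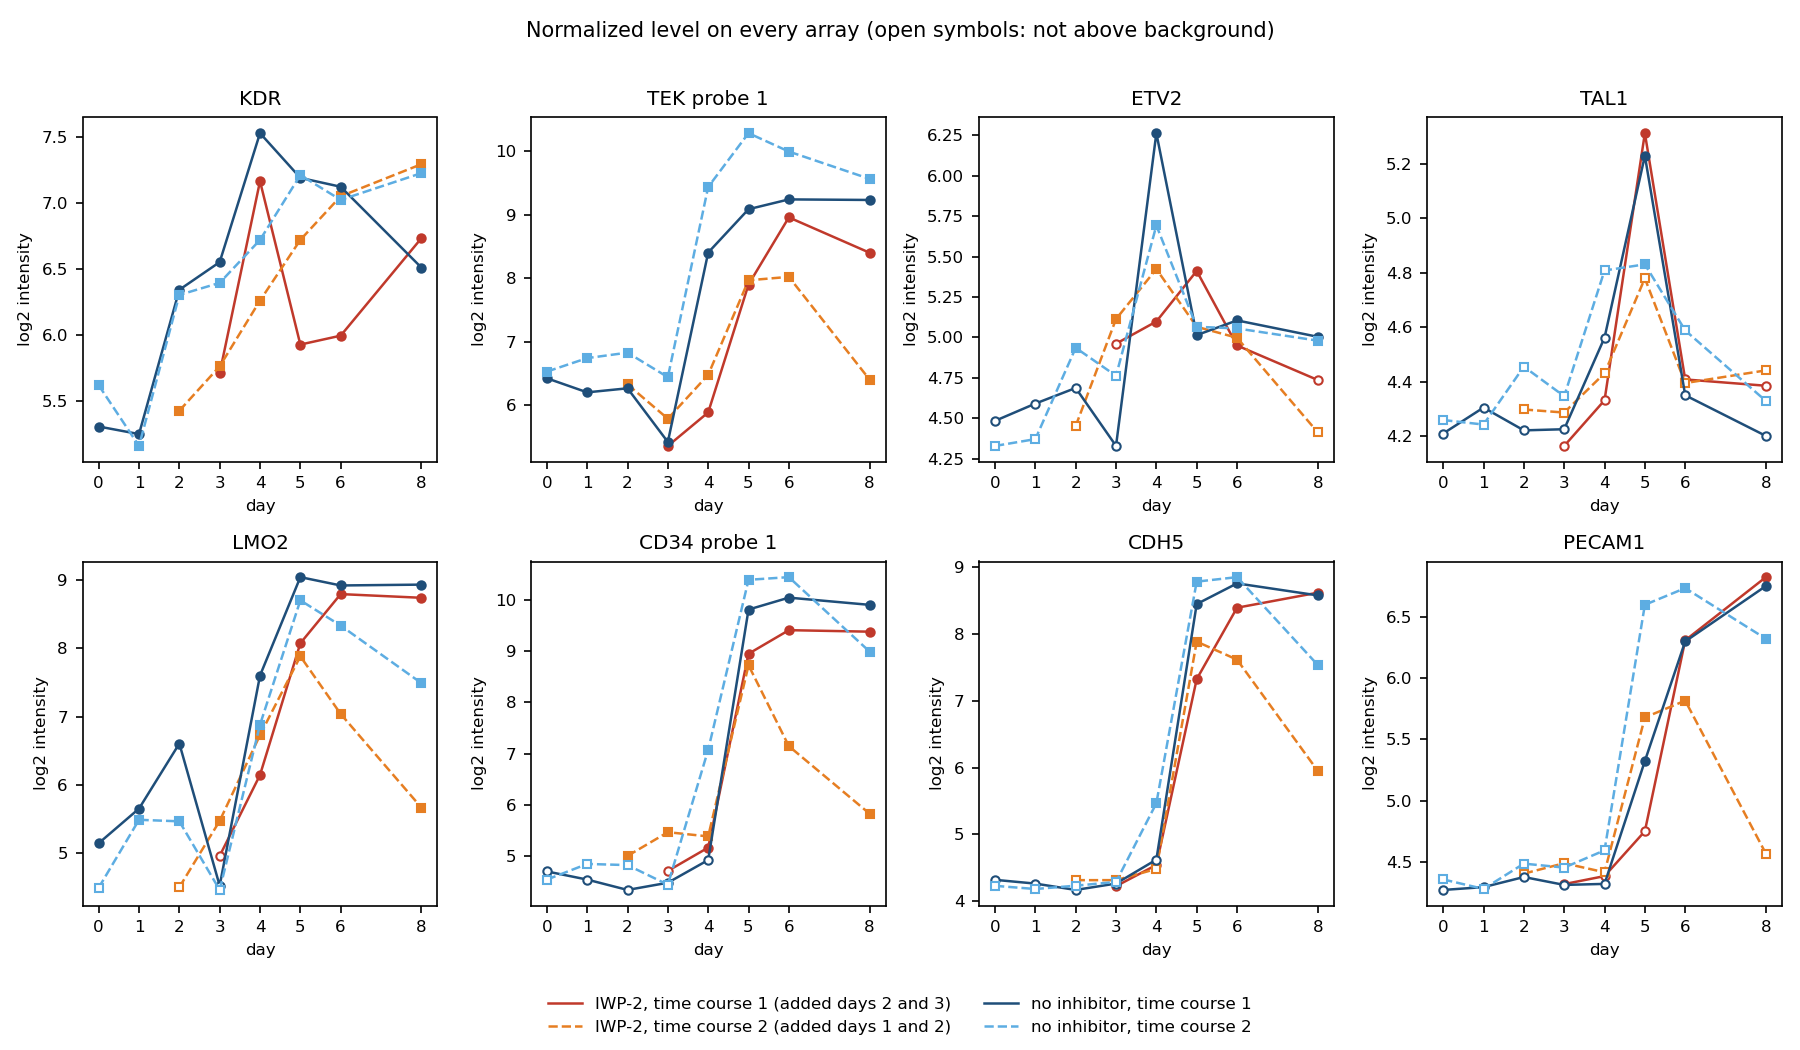
Normalized log2 intensity (vertical axis) by day (horizontal axis) for 1 probe of each of the 8 genes on all 27 arrays; lines join the arrays of 1 arm and time course, and open symbols are values not above background. Without inhibitor, KDR, ETV2, TEK and LMO2 were above day 0 on both day 4 arrays, and CD34, CDH5 and PECAM1 were above background on both arrays from day 5, while the IWP-2 line of time course 2 fell after day 5 or day 6 for TEK, LMO2, CD34, CDH5 and PECAM1. For the same genes, the line of time course 2 without inhibitor also fell from day 6 to day 8.

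Ordering the 13 groups of 2 arrays by mean level put day 5 without inhibitor first for KDR, TEK, LMO2 and CD34 probe 2, day 6 without inhibitor first for CD34 probe 1 and CDH5, day 8 without inhibitor first for PECAM1 and day 4 without inhibitor first for ETV2. For TAL1 it put day 5 with IWP-2 first (5.05, 1 of 2 arrays above background), followed by day 5 without inhibitor (5.03). Neighbours in that order mostly overlapped. Of 12 neighbouring pairs, 11 overlapped for TEK probe 1, LMO2, CD34 probe 1, PECAM1 and TAL1, 10 for ETV2 and 9 for KDR and CDH5. This count was not made for other probes, so it describes the members and cannot show whether they were unusual. The pairs that did not overlap included, for ETV2, day 4 with IWP-2 (5.26 ± 0.23, SD, n = 2) under day 4 without inhibitor (5.98 ± 0.40). For CDH5 one such step was day 8 with IWP-2 (7.29 ± 1.89) over day 4 without inhibitor (5.04 ± 0.60), the gap between the late and the early groups.

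By days 3 and 4 without inhibitor, 2 of the 11 probes tested had risen over day 0 and none had fallen, against 29.1% of the 23933 probes of the table called in either direction and 13.9% called higher. A call is an adjusted p under 0.05 in a linear model fitted with limma over all probes, with Benjamini-Hochberg adjustment over all of them. KDR averaged 6.80 on the 4 arrays of days 3 and 4 and 5.46 on the 2 day 0 arrays, a log2 difference of 1.34 ± 0.32 (SE), or 2.53-fold (limma, adjusted p = 0.00391). ETV2 averaged 5.26, with 2 of 4 arrays above background, against 4.41 on day 0 with neither. Its difference was 0.86 ± 0.18 (limma, adjusted p = 0.00162), and with day 0 raised to the floor it was 1.245-fold higher. That fold is not a strict lower bound, since 2 of the 4 arrays behind the ETV2 mean of days 3 and 4 were below background. The KDR call was lost without the day 0 array of time course 1 (adjusted p = 0.0511, limma). The median over the 11 probes was 0.61, against -0.01 over all probes.

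Days 3 and 4 were not alike. Taking day 4 alone, a reading added after the values were seen, 5 probes of 4 genes passed, all higher than day 0, against 27.5% of all probes called and 13.2% called higher on that day. TEK probe 1 rose by 2.45 ± 0.53 (limma, adjusted p = 0.00236), TEK probe 2 by 2.23 ± 0.57 (0.00743) and LMO2 by 2.42 ± 0.60 (0.00579). ETV2 rose by 1.57 ± 0.21 (2.5e-05) and KDR by 1.67 ± 0.36 (0.00241). On day 3 alone none of the 11 passed in limma, against 19.8% of all probes. There TEK probe 1 differed from day 0 by -0.55 ± 0.53 and LMO2 by -0.33 ± 0.60. Averaged over both days, TEK probe 1 had a difference of 0.95 ± 0.46 (adjusted p = 0.137) and LMO2 of 1.05 ± 0.52 (adjusted p = 0.144, limma).

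By days 6 and 8 without inhibitor, 9 of 11 probes covering 7 of the 8 genes had risen over day 0, against 41.2% of all probes called and 19.7% called higher. The median over the 11 probes was 2.85, against -0.015 over all. CD34 rose by 5.22 ± 0.74 with probe 1 (limma, adjusted p = 2.4e-05) and 5.23 ± 0.85 with probe 2, or at least 29.9-fold and 23.8-fold over the floor. CDH5 rose by 4.16 ± 0.47, at least 11.2-fold, and PECAM1 by 2.22 ± 0.44, at least 3.00-fold. These 3 surface genes were above background on all 4 arrays of days 6 and 8 and on neither of day 0.

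Among the receptors and regulators on days 6 and 8, LMO2 rose by 3.60 ± 0.52 (12.1-fold), with 1 of 2 day 0 arrays above background. TEK rose by 3.03 ± 0.46 with probe 1 (8.20-fold) and 2.85 ± 0.50 with probe 2. KDR rose by 1.51 ± 0.32 (2.85-fold; limma, adjusted p = 0.000914). ETV2 rose by 0.63 ± 0.18 (limma, adjusted p = 0.00895), at least 1.065-fold, and its call was lost without the day 0 array of time course 2 (adjusted p = 0.0907). TAL1 did not pass (0.13 ± 0.16, adjusted p = 0.548), with no array above background on these days.

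Between the early and the late window without inhibitor, 7 probes of 5 genes were higher on days 6 and 8 than on days 3 and 4, against 21.7% of all probes called and 10.5% called higher. CD34 rose by 4.62 ± 0.60 with probe 1, CDH5 by 3.77 ± 0.38, LMO2 by 2.55 ± 0.42 and PECAM1 by 2.11 ± 0.36 (at least 2.99-fold). On days 3 and 4, CD34 and CDH5 were above background on 1 of 4 arrays and LMO2 on 2 of 4, so the sizes of their rises rest partly on values at background. TEK rose by 2.08 ± 0.38 and 2.03 ± 0.41 with its 2 probes. KDR (0.17 ± 0.26, adjusted p = 0.688) and ETV2 (-0.23 ± 0.15, adjusted p = 0.3, limma) did not pass, and their levels of days 6 and 8 overlapped those of days 3 and 4.

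With IWP-2, TEK was the member that was lower on days 3 and 4. Of 11 probes, 2 fell and none rose, both of TEK, against 3.59% of all probes called and 1.84% called lower. Probe 1 averaged 5.88 on 4 IWP-2 arrays and 7.43 on 4 arrays without inhibitor, a difference of -1.55 ± 0.38 (limma, adjusted p = 0.0279), and probe 2 differed by -1.55 ± 0.41 (adjusted p = 0.041). The 2 IWP-2 schedules were taken as replicates here and in the comparison of days 6 and 8. Within time courses 1 and 2, probe 1 differed by -1.29 and -1.81. Read alone, an addition made after the values were seen, day 4 gave -2.74 ± 0.53 for probe 1 (limma, adjusted p = 0.00826) and -2.50 ± 0.57 for probe 2 (0.0242), where 2.53% of all probes were called. Day 3 alone gave -0.36 ± 0.53 and -0.61 ± 0.57, neither passing, where 0.869% were called. Leaving out any 1 of 6 arrays for probe 1, or of 7 for probe 2, ended the call, with differences of -1.75 to -1.35 and -1.83 to -1.28 over all 8 omissions. The calls also ended with a larger offset, with no background correction, with median scaling and with no filter on dim probes.

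KDR was lower with IWP-2 on both days 3 and 4 of both time courses, but the mean difference of -0.58 ± 0.26 did not pass (limma, adjusted p = 0.285). PECAM1 and TAL1 were below background in both arms on these days. CD34 probe 1 was above background on 3 of 4 arrays with IWP-2 and on 1 of 4 without inhibitor (7.08, day 4 of time course 2). CD34 probe 2 was above background on 1 of 4 arrays in each arm. CDH5 was above it on 0 of 4 arrays with IWP-2 and on 1 of 4 without inhibitor (5.47, also day 4 of time course 2). None of these 4 genes gave a difference that passed. LMO2 and ETV2 did not pass either, with differences of opposite sign in time courses 1 and 2. The median over the 11 probes was -0.18, against 0.02 over all probes.

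On days 6 and 8, CD34 and TEK were lower with IWP-2. Both of the main CD34 probes and both TEK probes fell, 4 of 11, and none rose, against 30.3% of all probes called and 15.4% called lower. The members' share was not far from the share of the whole table called in either direction. It was above the share called lower, and the 4 probes read only 2 genes. CD34 probe 1 averaged 7.94 with IWP-2 and 9.85 without inhibitor, a difference of -1.90 ± 0.60 (limma, adjusted p = 0.0234), and probe 2 differed by -2.09 ± 0.69 (0.0299). CD34 probe 2 was below background (4.57) on the IWP-2 array of day 8, time course 2, so the size of its difference rests partly on background. TEK probe 1 averaged 7.95 with IWP-2 and 9.51 without inhibitor, a difference of -1.56 ± 0.38 (limma, adjusted p = 0.00423), and probe 2 also differed by -1.56 (± 0.41, 0.00694). The median over the 11 probes was -0.79, against -0.015 over all. All 4 TEK arrays with IWP-2 lay below all 4 without inhibitor, and for CD34 probe 1 the groups overlapped, at 5.83 to 9.41 with IWP-2 and 8.99 to 10.45 without inhibitor.

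The size of this difference rested on time course 2. Within time courses 1 and 2, CD34 probe 1 differed by -0.58 and -3.23, TEK probe 1 by -0.56 and -2.57, CDH5 by -0.16 and -1.41, LMO2 by -0.16 and -1.56, and PECAM1 by 0.04 and -1.34. PECAM1 was below background (4.57) on the IWP-2 array of day 8, time course 2, so its -1.34 rests partly on background. CDH5 (-0.79 ± 0.38, adjusted p = 0.136), LMO2 (-0.86 ± 0.42, 0.143) and PECAM1 (-0.65 ± 0.36, 0.199) did not pass in limma. Without the dim IWP-2 array of day 8, time course 2, CD34 probe 1 differed by -0.99 ± 0.50 (adjusted p = 0.169) and TEK probe 1 by -0.94 ± 0.28 (adjusted p = 0.0215), and PECAM1 by -0.03 and CDH5 by -0.12. Without the IWP-2 array of day 8, time course 1, 7 member probes were lower, against 27.3% of all probes called and 13.6% called lower in that fit, with CD34 probe 1 at -2.82, TEK probe 1 at -2.18, CDH5 at -1.45, LMO2 at -1.50 and PECAM1 at -1.27. The CD34 probe 1 call was also lost on leaving out either day 6 array of time course 2, or the no-inhibitor array of day 8 in time course 1, whereas both TEK probes passed in each of the 8 omissions. Read alone, again an addition, day 6 gave no member that passed in limma, where 12.6% of all probes were called. Day 8 alone gave both TEK probes, where 21.3% were called, with an adjusted p of 0.0121 for probe 1 and a difference of -2.04 ± 0.57 for probe 2 (limma, adjusted p = 0.0167).

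**Figure D2:**
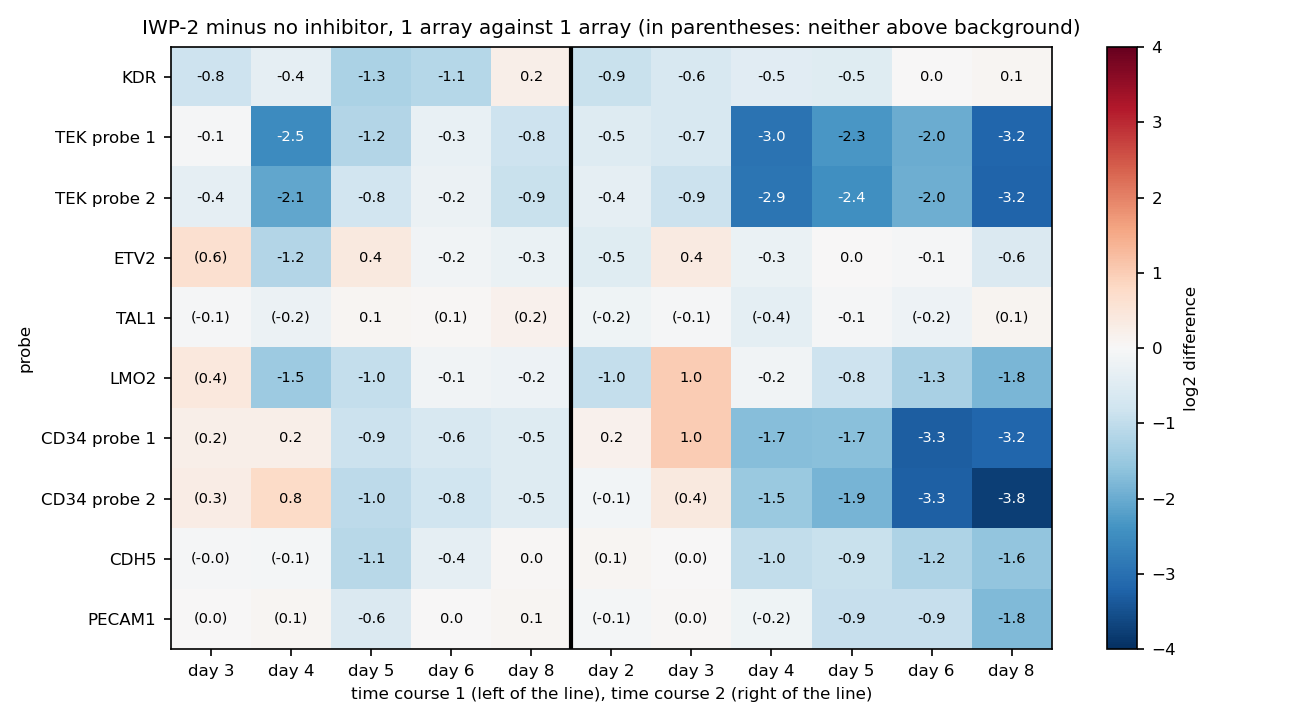
Difference in log2 intensity between the IWP-2 array and the array without inhibitor of the same day and time course (colour and number), for 10 probes (rows) on each shared day (columns); parentheses mark pairs in which neither array was above background. Differences on days 6 and 8 are deeper in time course 2 than in time course 1 for TEK, CD34, CDH5, LMO2 and PECAM1.

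No member passed the test of a change in the inhibitor difference with the stage or with the time course. For the difference on days 6 and 8 minus that on days 3 and 4, 0 of 11 probes passed in limma, against 14.9% of all probes, and CD34 had the lowest values, -1.86 ± 0.85 (adjusted p = 0.164) and -2.08 ± 0.98 (0.174). For time course 2 minus time course 1, averaged over days 3 to 8, 0 of 11 passed, against 0.171% of all probes, with TEK at -1.24 ± 0.42 (limma, adjusted p = 0.155) and -1.41 ± 0.42 (0.123). CD34 gave -1.45 ± 0.76 (0.342) and -1.75 ± 0.83 (0.292) in that comparison. The days on which IWP-2 was given and the time course cannot be told apart. Leaving out the IWP-2 array of day 8, time course 1, let 5 member probes pass the stage comparison, all with a negative change, against 13.9% of all probes called and 6.63% called with a negative change in that fit.

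The 5 CD34 probes did not read alike. Probes 1 and 2 followed each other over the 27 arrays (Pearson r = 0.985 over 27 arrays of 2 time courses). Probe 3 lay between 4.27 and 5.00 on all arrays and was above background on 4 of them, and its r with probe 1 was 0.24. Its difference between days 6 and 8 without inhibitor and day 0 was -0.01 ± 0.18. The sequence positions of these probes were not used here. The 2 TEK probes followed each other with r = 0.995, and both were above background on day 0.

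**Figure D3:**
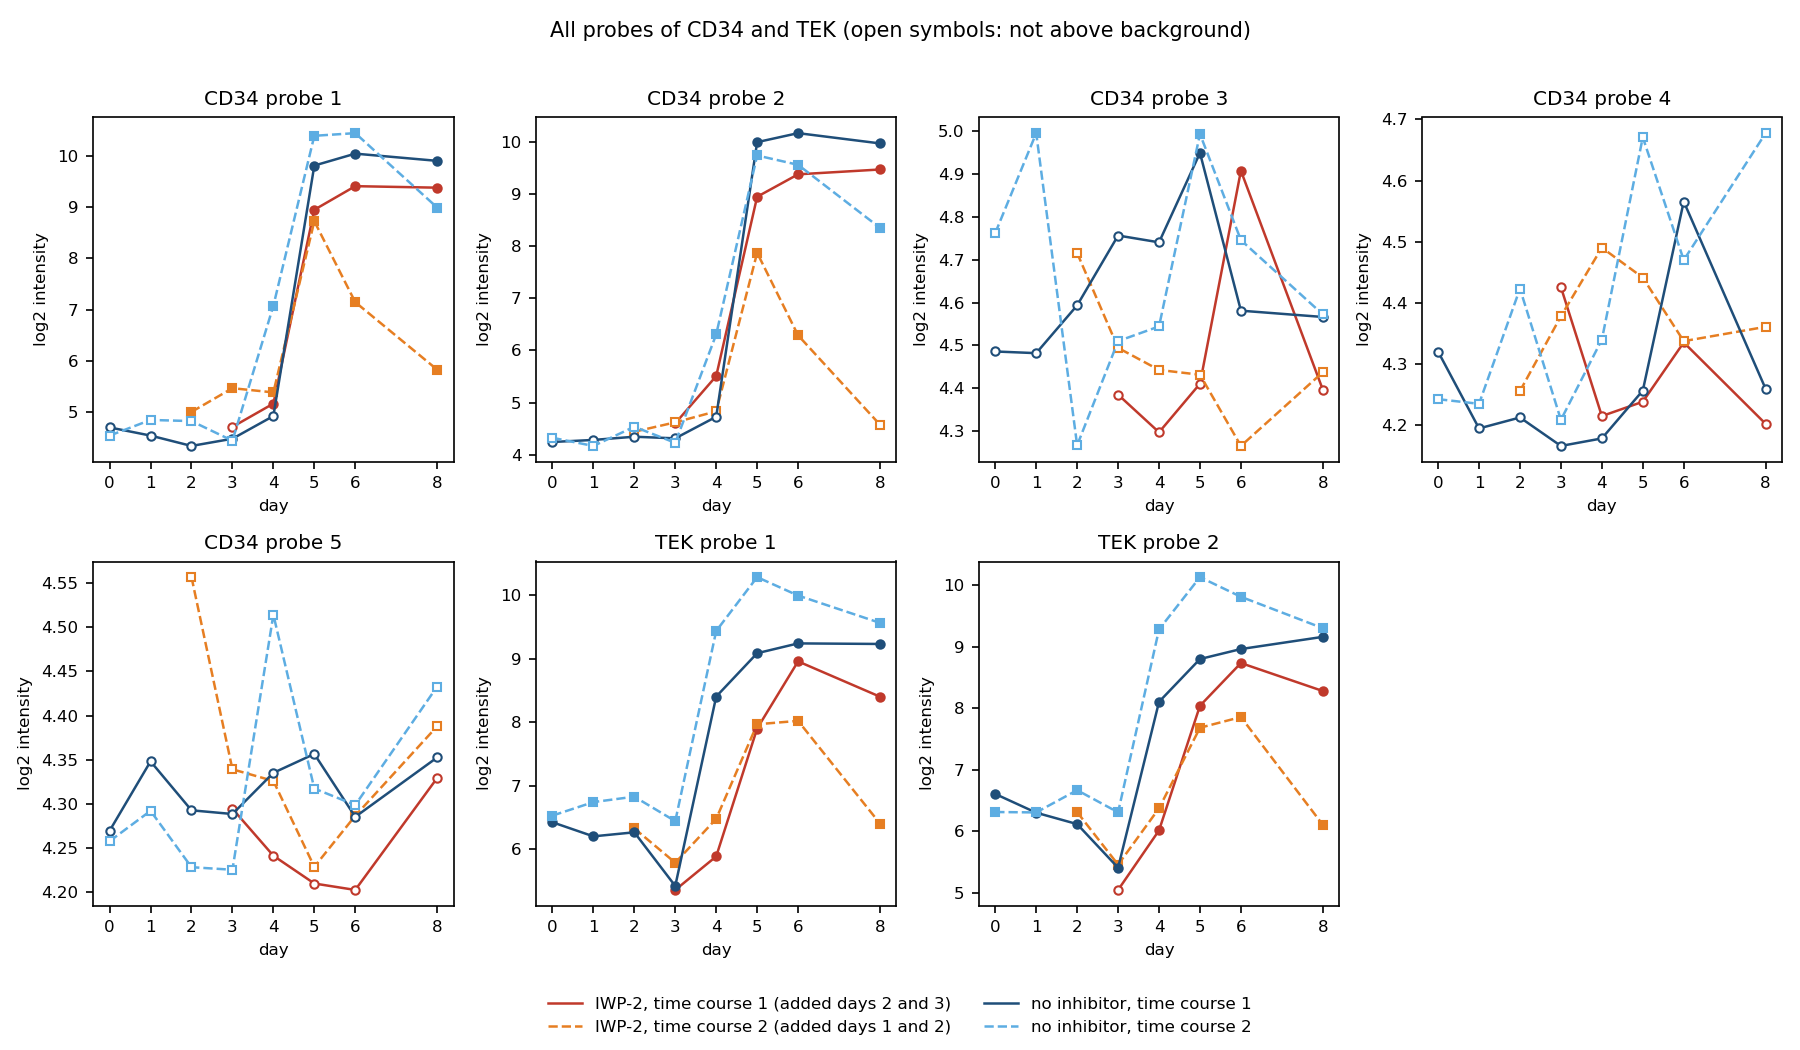
Normalized log2 intensity (vertical axis, scaled to each panel) by day (horizontal axis) of the 5 CD34 and 2 TEK probes, with the symbols as in the plot of all 8 genes. CD34 probes 1 and 2 and both TEK probes share their course, and CD34 probes 3, 4 and 5 stay below about 5 on the log2 scale.

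The genes most like each member were sought among 13572 genes, by the correlation of log2 levels over the 27 arrays after centring within each time course. CDH5 was most like PLVAP, a protein of endothelial fenestrae (r = 0.982), CD34 (0.978) and GIMAP4 (0.975). CD34 probe 1 was most like CDH5 (0.978), the adhesion gene ICAM2 (0.977) and RAMP2 (0.967). PECAM1 was most like CD93 (0.986), TIE1, the sister receptor of TEK (0.967), and GIMAP4 (0.963). LMO2 was most like SOX7 (0.930), ARHGDIB (0.927) and CD34 (0.919). TEK probe 1 had other neighbours, INKA1 (0.952), DLK2 (0.945) and the collagen gene COL6A3 (0.940). The nearest genes of KDR (ZFYVE16, 0.844) and ETV2 (THNSL2, 0.823) were less close. These values describe 27 arrays that share 2 time courses.

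Of 34 further endothelial genes, 26 had enough signal to be tested and 8 did not. On days 3 and 4 without inhibitor 3 of the 26 had risen and 1 had fallen against day 0, where 32.8% of 13572 genes were called. ANGPT2, an angiopoietin, rose by 2.67 ± 0.57, at least 4.06-fold, SOX7, a SOX-family factor of endothelial cells, by 0.92 ± 0.21 and S1PR1, a sphingosine phosphate receptor, by 0.75 ± 0.24. ECSCR fell by 1.21 (-1.21 ± 0.40; limma, adjusted p = 0.0321). The ECSCR and S1PR1 calls were each lost in 4 of 14 other settings (adjusted p up to 0.181 and 0.133) and on leaving out any 1 of 4 of the 6 arrays, and the SOX7 call without the day 0 array of time course 2 (0.0518). On days 6 and 8, 18 of the 26 had risen and none had fallen, where 46.6% of genes were called and 23.4% were higher. The median was 1.635, against -0.0049 over all genes. On the day 0 arrays 10 and 12 of the 26 were above background, and the rest had little room to fall. Testing needed a signal on at least 2 of the 27 arrays, so genes silent on day 0 entered through arrays where they were higher. CD93 rose by 4.07 ± 0.77 (at least 10.6-fold), ICAM2 by 3.67 ± 0.45 (at least 7.705-fold), the connexin GJA4 by 2.58 ± 0.57 (adjusted p = 0.0619 on omitting the time course 1 array of day 0) and the junction protein ESAM by 2.55 ± 0.30.

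With IWP-2 on days 6 and 8, 6 of the 26 endothelial genes were lower and 2 higher, a share near the 34.1% of all genes called, with a median of -0.55 against -0.02 over all genes. GJA4 differed by -2.11 ± 0.46, CLDN5, the claudin of endothelial tight junctions, by -2.01 ± 0.28 (at least 2.865-fold lower) and ICAM2 by -1.89 ± 0.37. ENG, a TGF-beta co-receptor that other mesoderm cells also carry, was higher by 1.80 ± 0.29 (limma, adjusted p = 0.000127), with 4 of 4 arrays above background with IWP-2 and 2 of 4 without inhibitor. On days 3 and 4, 1 of 26 passed with IWP-2, SOX7, at -0.69 ± 0.17 (limma, adjusted p = 0.0291), where 4.14% of genes were called. That call was lost in 7 of 8 omissions of an array (adjusted p up to 0.159) and in 5 of 14 other settings, among them the fit with no replicate block. Summed over the 26 genes, linear levels were 1378.6 to 3561.9 on the 4 IWP-2 arrays of days 6 and 8, against 2344.4 to 3759.1 on the 4 without inhibitor.

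**Figure D4:**
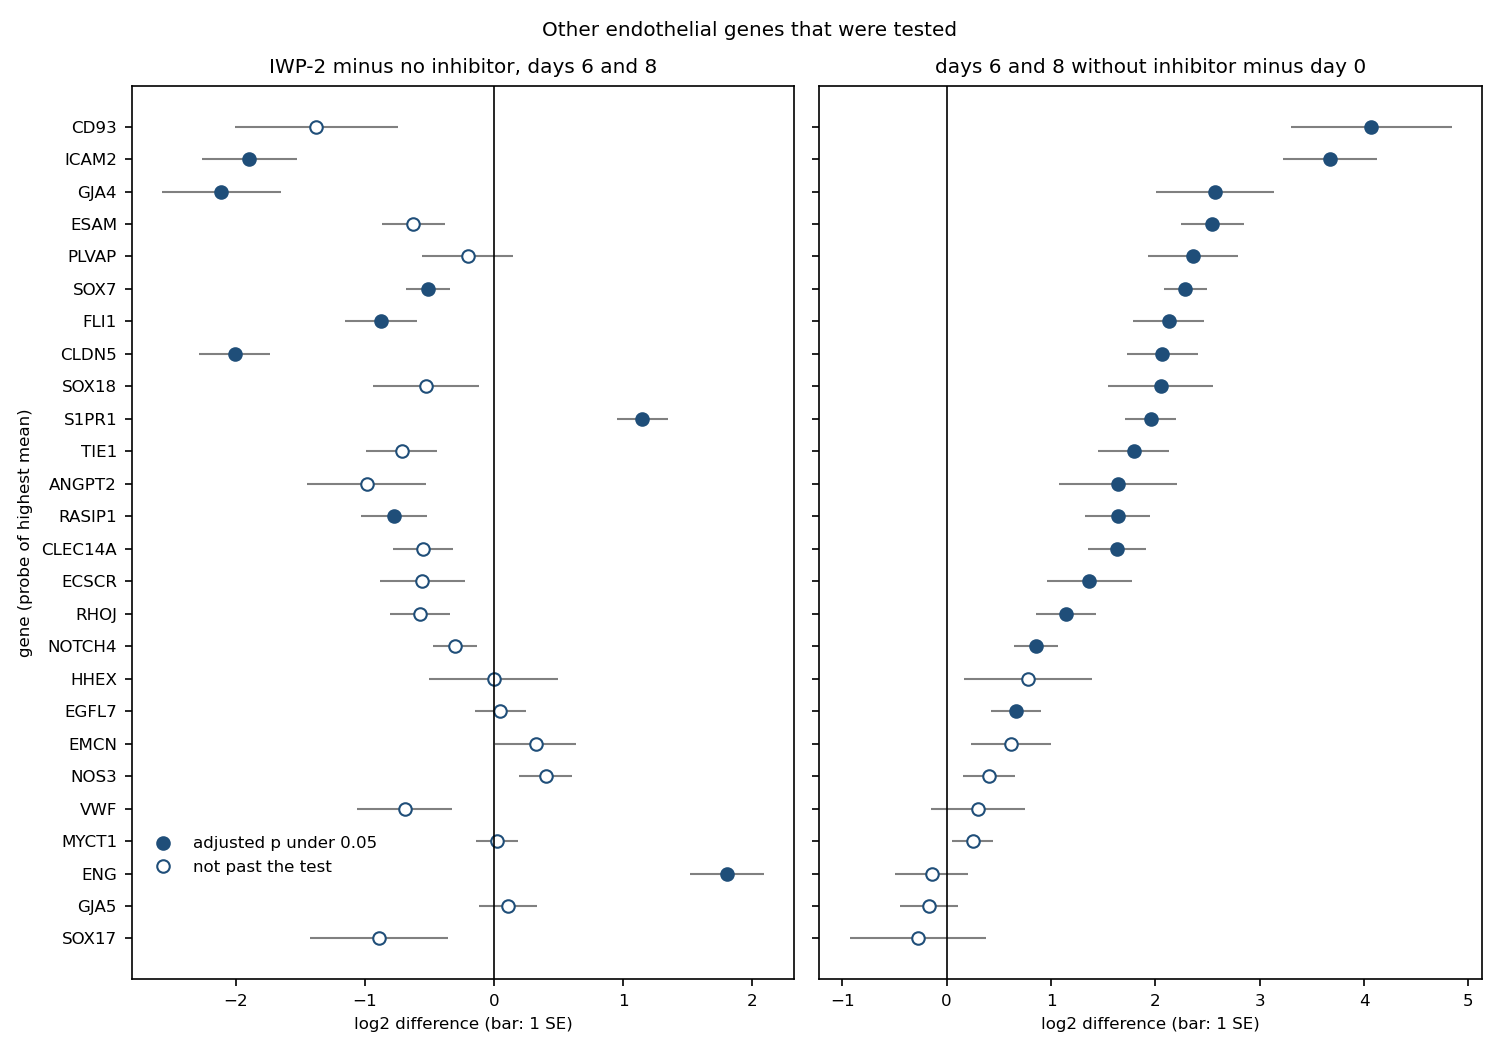
Log2 differences with 1 SE (horizontal axis) of the 26 tested endothelial genes outside the 8 members (vertical axis), for IWP-2 minus no inhibitor on days 6 and 8 (left) and for days 6 and 8 without inhibitor minus day 0 (right); filled points passed the test. On the right 18 genes are filled, all above 0, and on the left 6 are filled below 0 and 2 above.

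Of 31 blood genes 28 had a named probe and 16 were tested, and on days 6 and 8 without inhibitor 2 were higher and 4 lower than on day 0, where 46.6% of all genes were called. LCP1, a leukocyte actin-bundling protein, rose by 2.08 ± 0.27 and the erythropoietin receptor EPOR by 1.26 ± 0.21. MYB, a regulator of blood progenitors, differed by -2.24 ± 0.24 and KIT, the stem cell factor receptor, by -1.35 ± 0.26 (limma, adjusted p = 0.000503). The median of the 16 was 0.23, against -0.0049 over all genes. With IWP-2 on days 3 and 4, GATA2, a partner of TAL1 and LMO2 in blood progenitors, was higher by 1.85 ± 0.22 (limma, adjusted p = 6.86e-05) and was the 1 gene of the 16 that passed, where 4.14% of all genes were called. It was above background on 4 of 4 arrays with IWP-2 and 2 of 4 without inhibitor. On days 6 and 8, 1 of the 16 passed in each direction with IWP-2, where 34.1% of all genes were called, ALAS2 at 0.64 ± 0.16 and LCP1 at -0.85 ± 0.22.

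Of 8 partners of TAL1 and LMO2, 6 were tested. LYL1, the closest relative of TAL1, was above background on 1 of 2 day 0 arrays and rose by 2.14 ± 0.30 by days 3 and 4 without inhibitor and by 2.88 ± 0.30 by days 6 and 8 (limma, adjusted p = 7.6e-07). TCF3, which pairs with TAL1, differed by -0.63 ± 0.16 on days 6 and 8, a call lost with no replicate block, with the time course as a random block (adjusted p up to 0.371), and on omitting the time course 2 array of day 0 (0.0787). LDB1 and TCF12, the adaptor and a further pairing partner, did not pass in any comparison. The LDB1 probe was above background on 3 arrays alone, so its result says little about the gene, while TCF12 reached 27 arrays.

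Of 14 genes for ligands, receptors and co-receptors around KDR and TEK, 10 were tested. Without inhibitor, 4 of the 10 were higher on days 3 and 4 than on day 0, where 32.8% of all genes were called, and 6 on days 6 and 8, where 46.6% were called, with none lower. On each day 0 array 3 of the 10 were above background, so most had little room to fall. NRP1, a co-receptor of KDR, rose by 5.28 ± 0.32 on days 3 and 4, at least 25.0-fold, and VEGFA, the ligand, by 2.59 ± 0.32. PGF, a ligand of the related receptor FLT1, rose by 2.03 ± 0.26, at least 3.40-fold. With IWP-2 on days 3 and 4, NRP1 was lower by 1.80 on the log2 scale (-1.80 ± 0.26; limma, adjusted p = 0.000518), VEGFA differed by -1.15 ± 0.26 and NRP2 by 1.25 ± 0.30, where 4.14% of all genes were called. The VEGFA call was lost in 5 of 8 omissions of an array and the NRP2 call in 6 of 8, and both with no replicate block (adjusted p up to 0.103 and 0.102 over the settings). On days 6 and 8, VEGFB (1.03 ± 0.15), ANGPT1, the agonist of TEK (1.02 ± 0.23) and VEGFA (0.71 ± 0.26) were higher with IWP-2, and PGF was lower (-0.80 ± 0.21), where 34.1% of all genes were called. The VEGFA call of these days held in 6 of 14 other settings (adjusted p up to 0.149) and was lost in 7 of 8 omissions. The PGF call was lost with no replicate block (0.106) and without the IWP-2 array of day 6, time course 2 (0.0634).

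Markers of some other cells moved with IWP-2 on the same days as CD34 and TEK. On days 6 and 8, 34.1% of all genes were called in either direction. There 10 of 10 cardiomyocyte genes were higher, with summed levels of 44139 to 77108 with IWP-2 and 1508.6 to 2941.4 without inhibitor, and all 10 were above background on every IWP-2 array. All 6 fibroblast genes were lower, at 563.68 to 14194 with IWP-2 and 39703 to 55406 without inhibitor. Of 8 smooth muscle and pericyte genes 5 were higher and 1 lower, with sums of 9030.6 to 20673 and 4013.7 to 8933.0, and of 6 endoderm genes 3 were lower, with sums of 249.79 to 1002.0 and 746.55 to 7882.8. Of 6 mesoderm genes 2 were higher, with sums of 1555.4 to 6010.9 and 1781.4 to 4086.4, and of 5 pluripotent genes 2 were lower, with sums of 578.25 to 3747.1 and 1275.6 to 3621.2. The mesoderm and pluripotent counts were near the share of all genes called. On days 3 and 4, 0 of 10 cardiomyocyte genes passed in limma and 2 of 6 fibroblast genes were lower, where 4.14% of all genes were called. Cardiomyocyte sums on these days were 1187.9 to 24029 with IWP-2, highest on day 4 of time course 2, and 1132.2 to 4226 without inhibitor. Fibroblast sums were 291.14 to 2481 with IWP-2 and 491.05 to 18843 without inhibitor. The part of these cells in the CD34 and TEK differences was not tested.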

How the data were processed

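Total RNA was hybridised to 27 Illumina bead arrays, 13 for the first time course and 14 for the second. The authors deposited non-normalized probe intensity with a detection p-value per array, exported from GenomeStudio per the submitters' processing notes, and separately a deposited processed intensity per array, whose log2 median was 6.876 for the first and 4.63 for the second. Their normalization step is not given in any source used here. On each array these processed values kept the rank order of the scanner values (lowest rank correlation 1). Neither table holds counts, so the number of arrays limits the precision.

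From the deposited intensity, background was corrected with the normexp method on the detection p-values (neqc, offset 16), followed by quantile normalization and log2, in limma 3.58.1 (R 4.3.3). Probes with a detection p under 0.01 on at least 2 arrays were tested, 23933 of 47323. The platform annotation gave 30113 probes 1 symbol, 8 several and 17202 none; 30074 matched RefSeq by gene ID and no symbol changed. A gene of a list was read by its probe of highest mean. The linear model held a term for each arm and day and a block for time course, with eBayes, and p-values were adjusted by Benjamini-Hochberg over all probes (threshold 0.05). The block was kept because the replicate number names the time course and arrays of one time course deviated together in 78 of 78 pairs of groups (r = 0.137 to 0.785). The script was tested on simulated data. Folds against a group below background use the lowest signal of a probe above background on each array. The other group kept its measured values, also on arrays where it was below background.

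The members and lists were chosen with earlier results of these data known. Named genes of a list were the 4 of largest difference among those that passed. Alternatives were other background corrections, normalizations, filters, probes per gene, variance models, array sets and blocks, each array left out, and single days, the last chosen after seeing the data.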

Additional observations from a re-analysis of the deposited data

Results flagged for a closer look

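For each gene below, the change in the difference between IWP-2 and no inhibitor, days 6 and 8 minus days 3 and 4, passed a test of its own (limma, adjusted over all probes). None is one of the 8 members. Among endothelial genes, the change was 2.04 ± 0.40 on the log2 scale for ENG, -1.99 ± 0.39 for CLDN5, -1.70 ± 0.52 for ICAM2 and 0.90 ± 0.28 for S1PR1. On days 3 and 4 ENG and CLDN5 were not above background in either arm, and ICAM2 was on 0 of 4 arrays with IWP-2 and 1 of 4 without inhibitor. On days 6 and 8 ENG was above it on 4 of 4 arrays with IWP-2 and 2 of 4 without inhibitor, and CLDN5 on 0 of 4 and 4 of 4, so the sizes of these changes rest partly on values at background. The ICAM2 change was lost in 4 of 14 other settings (adjusted p up to 0.0904) and 9 of 16 omissions of an array, and that of S1PR1 in 5 of 14 (up to 0.165) and 11 of 16, both with no replicate block among them. Among blood genes it was -1.28 ± 0.31 for GATA2, which differed by 1.85 on days 3 and 4 and by 0.57 on days 6 and 8. It was -1.23 ± 0.31 for LCP1 (0.38, then -0.85) and -1.14 ± 0.30 for KIT (0.74, then -0.40). The early part of LCP1 did not pass (limma, adjusted p = 0.436), so a turn of sign is not shown for it. The late part of GATA2 did not pass either (limma, adjusted p = 0.0552). Neither part passed for KIT (adjusted p = 0.0707 and 0.181, limma), and its change was lost with no replicate block (0.247) and in 3 of 16 omissions. Among VEGF and angiopoietin genes, the change was 2.31 ± 0.37 for NRP1 (-1.80, then 0.51) and 1.87 ± 0.37 for VEGFA (-1.15, then 0.71). It was 1.35 ± 0.21 for VEGFB (-0.32, then 1.03) and -1.40 ± 0.30 for PGF (0.60, then -0.80). For NRP1, VEGFB and PGF 1 of the 2 parts did not pass on its own, so a turn of sign is not shown for them. Both parts passed for VEGFA, but its late part was lost in 8 of 14 other settings and 7 of 8 omissions, and its early part in 2 of 14 settings and 5 of 8 omissions. The PGF change was lost with no replicate block (0.0839).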

How the results depend on the processing

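The 7 member genes called on days 6 and 8 against day 0 kept direction and call in every planned setting, apart from ETV2 without 1 day 0 array, and the 5 genes called against days 3 and 4 kept both in all. Of the inhibitor results, TEK on days 6 and 8 held throughout the planned settings (-1.74 to -1.26 for probe 1, and -2.18 to -0.94 with an array left out). The number of member probes that passed, 2 on days 3 and 4 against day 0, became 4 with only the compared arrays fitted, 0 on day 3 alone and 5 on day 4 alone, and 1 to 2 with an array left out. The 2 of IWP-2 on days 3 and 4 became 1 with no replicate block, with detection p under 0.05 or with 1 probe per gene, 0 with offset 50, no background correction, median scaling, no filter or day 3 alone, and 0 to 2 with an array left out. The 4 of IWP-2 on days 6 and 8 became 2 with no filter, with 1 probe per gene, with only the compared arrays or on day 8 alone, 0 on day 6 alone, and 2 to 7 with an array left out. The 0 of the stage comparison became 0 to 5 with an array left out. CD34 probe 2 on days 6 and 8 with IWP-2 lost its call with no replicate block (adjusted p up to 0.083 over the settings), and the block changed no other member call than this one and TEK probe 2 on days 3 and 4. Signs turned for TEK (-0.55 and -0.60) and LMO2 (-0.33) on day 3 alone against day 0, for NRP2 with IWP-2 on day 3 alone (-0.38), and for KDR between the windows (-0.0769 to 0.4213 with an array left out, lowest on omitting the no-inhibitor array of day 4, time course 2), none of them past the test there. The cause was not tested.

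Counts over all probes moved as follows. Days 3 and 4 against day 0 had 6966, 4604 with 1 probe per gene and 4276 to 6196 with an array left out, and days 6 and 8 against day 0 had 9860 and 6478 with 1 probe per gene. Days 6 and 8 against days 3 and 4 had 5188, and 3398 with no replicate block. IWP-2 on days 3 and 4 had 858, 502 with no replicate block, 1491 with array weights, 208 on day 3 alone and 437 to 749 with an array left out. IWP-2 on days 6 and 8 had 7263, 4747 with 1 probe per gene and 3015 on day 6 alone. The stage comparison had 3559, 2072 with no replicate block, 5388 with median scaling and 2349 to 3990 with an array left out. The time course comparison had 41, 64 with offset 50, 66 with no background correction, 393 with median scaling, 23 with the authors' processed values, 22 with no filter, 13 with 1 probe per gene, 107 with trend and robust, 151 with array weights and 2 to 264 with an array left out. Median scaling moved the share of higher calls to 75.1% (48.4% as reported) between the windows, 68.8% (48.7%) and 28.6% (49.4%) for IWP-2 early and late, 19.4% (52.7%) for stage and 4.07% (24.4%) for time course, where the medians of all probes were 0.12, 0.11, -0.14, -0.27 and -0.15. No fit without the block or with a random one was made for time course, and the files name no slide. CD34, CDH5, PECAM1, TAL1, ETV2 and LMO2 had values at the floor in early groups, where the sizes of differences are bounds or rest partly on background. On day 8 with IWP-2, CD34 probe 2 and PECAM1 in time course 2 and ETV2 in both time courses were also below background. TAL1 was below it on all arrays of days 6 and 8. The late IWP-2 differences of these probes rest partly on background as well.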
